A study of Mus musculus with 2 samples.

Results

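XY germ cells cultured for 24 h with an inhibitor of MEK were compared with XX germ cells cultured for 24 h with vehicle, to ask how much of the difference between the sexes was still present early after the inhibitor was added. Members were picked by their labels and not by expression values, though earlier results of these data were known when the comparison was chosen. They were the 4 libraries of XY gonads treated with 500 nM of the MEK1/2 inhibitor PD0325901 (XY + MEKi, replicates 1, 2, 4 and 6) and the 4 libraries of XX gonads in DMSO (XX + DMSO, replicates 4, 5, 6 and 9), so 8 of the 40 libraries of the series. All were mouse foetal germ cells, sorted for GFP from gonads that carried an Oct4-eGFP transgene, which labels germ cells, and each library came from gonads of several embryos pooled together. Gonads were collected at E12.5 and cultured whole with their mesonephros, so the inhibitor reached the somatic cells of the organ too. XY germ cells in DMSO at 24 h (XY + DMSO, 4 libraries) and XY and XX germ cells at the start of culture (0 h, 4 libraries each) were used beside them, and all 20 of these libraries were in the same sequencing pool. XX germ cells treated with MEKi were not among the groups, so the sex of the cells and the drug changed together in the comparison and cannot be told apart in it. Nothing in the labels says that libraries of a group came from separate days of culture, so the spread between them may be partly technical.

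MEK1 and MEK2 are the kinases that activate ERK, the last kinase of the pathway that FGF switches on. In the foetal testis, FGF9 from somatic cells and NODAL made by the germ cells themselves act on XY germ cells before these commit to the male line, stop dividing and express NANOS2, an RNA-binding protein that represses meiosis. In the foetal ovary, BMP and retinoic acid lead to expression of Stra8, whose protein works with MEIOSIN to turn on the genes of meiotic prophase. The comparison therefore sets the male signalling genes, the meiotic genes and their upstream signals side by side.

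The 8 libraries held between 1938080 and 3117235 counts, each count being 1 unique molecule assigned to a gene, and between 19295 and 21496 genes with a count. All 11 germ cell identity genes on the marker list, among them Ddx4, Dazl and Pou5f1, had counts in every library of the 3 groups at 24 h. The sex labels were checked with 4 Y-linked genes. The MEKi libraries had 345 to 407 counts over these genes and the XX + DMSO libraries 13 to 39, against 3 to 8 in the XX libraries of 0 h. Each XX + DMSO library shared its sample index with a library of the other sequencing pool made from XY germ cells treated for 72 h with an FGF receptor inhibitor, whereas no MEKi library shared one. From the Y-linked counts, 3.25% of the partner library's counts would have to have been carried over. Calls, gene lists, named genes, the X-linked share and the share of all somatic and blood markers were also computed with that share taken out ("shared index taken out"), while the other shares, distances and principal components were not. The 0 h and XY + DMSO libraries share indexes as well, those of XY at 0 h with XY cells of 72 h in DMSO, and their partners' share was taken out in the same fit. One library, XX + DMSO replicate 6, stood apart from its group: it had the most Y-linked counts (39), the lowest score on the second principal component (-35.25) and a quality weight of 0.567, so counts are also given without it.

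At 24 h, germ cells of the MEKi-treated XY gonads still differed from XX germ cells at 1315 of the 15252 genes tested. Of these, 473 were higher (3.10%) and 842 were lower (5.52%) in XY + MEKi, with limma's test against a 1.5-fold change and a Benjamini-Hochberg false discovery rate (FDR) under 0.05. The called genes were mostly well separated. The 4 MEKi libraries lay wholly above the 4 XX libraries for 467 of the 473 and wholly below them for 829 of the 842, against 5102 genes (33.5%) with no overlap between the groups among all those tested. The median fold was 3.07 for the genes called higher and 4.09 for those called lower, and 164 and 429 of them differed more than 4-fold. A further 4763 genes had a fitted difference over 1.5-fold that did not pass the test. Without XX + DMSO replicate 6 the counts were 410 higher and 764 lower. With the shared index taken out they were 564 higher and 751 lower, of which 466 and 745 were among those called with all counts; the share of calls that were higher in XY + MEKi went from 36.0% to 42.9%.

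The untreated comparison stood beside this one with values of the same order. XY + DMSO differed from the same XX + DMSO libraries at 610 genes that were higher (4.00%) and 914 that were lower (5.99%). These make 1524 genes in all, against 1315 for XY + MEKi. The totals lay further apart with the shared index taken out, at 1679 for XY + DMSO and 1315 for XY + MEKi. Since both comparisons used the same 4 XX libraries, they are not independent, and the direct test of the change is XY + MEKi against XY + DMSO. That test called 8 genes higher (0.0525%) and 17 lower (0.111%). Leaving out XY + DMSO replicate 4 gave 5 and 16, edgeR's glmTreat gave 9 and 27, and taking out the shared index gave 9 and 15. At 0 h, in other libraries, XY and XX germ cells differed at 205 genes that were higher (1.34%) and 252 that were lower in XY (1.65%). Without XY 0 h replicate 3 these counts were 147 and 151, and without XX 0 h replicate 5 they were 130 and 196.

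**Figure D1:**
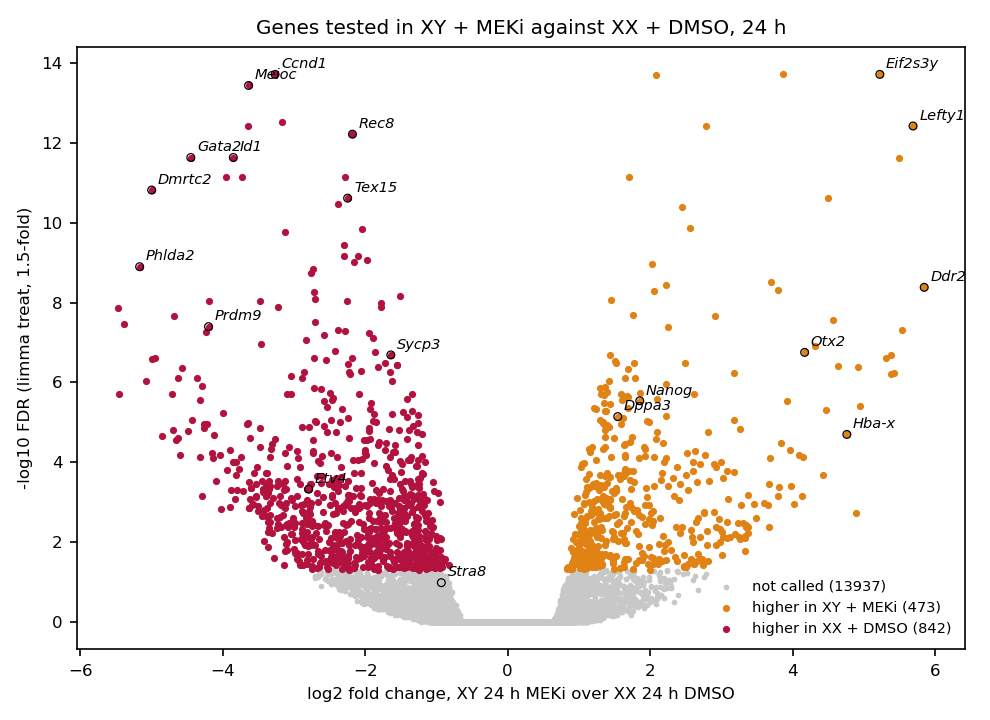
Each point is 1 of the 15252 genes tested: its log2 fold change of XY 24 h MEKi over XX 24 h DMSO on the x axis and -log10 of its FDR on the y axis, with values past 1e-16 drawn at that edge. The 842 genes called lower (red) reach larger differences and smaller FDRs in greater number than the 473 called higher (orange), Stra8 lies below the threshold, and the circled genes are described in the text.

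Over all genes tested, MEKi libraries were as far from XX libraries as untreated XY libraries were. The root mean square difference in log2 CPM (counts scaled to library size) between a MEKi and an XX library averaged 0.947, and that between an XY + DMSO and an XX library 0.946. Between MEKi and XY + DMSO libraries it was 0.664, and between libraries of the same group 0.547 to 0.598. On the first principal component of the 20 libraries the MEKi libraries scored 24.16 to 29.44, within the range of XY + DMSO (24.51 to 33.36) but for its lower end, and the XX + DMSO libraries -43.01 to -38.77. The sexes at 0 h lay between these groups, at 12.12 to 16 for XY and -30.31 to -27.03 for XX.

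**Figure D2:**
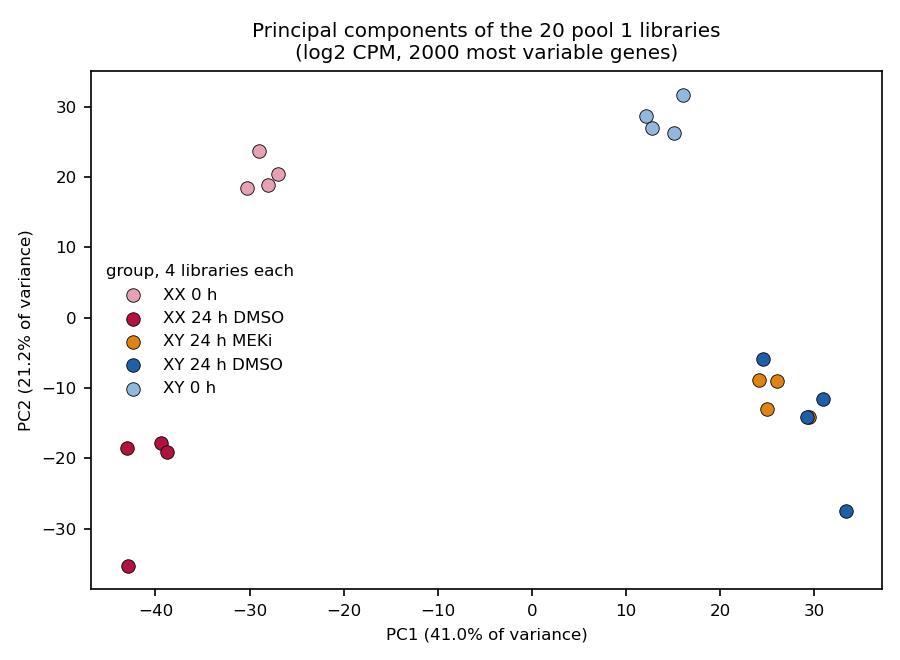
Scores of the 20 libraries of the first pool on the first 2 principal components of log2 CPM, over the 2000 most variable genes; each point is a library, coloured by group, with 4 per group. PC1 (41% of the variance) separates XY from XX and the orange MEKi points lie among the XY + DMSO points; PC2 (21.2%) separates 0 h from 24 h.

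Pdk1, Samhd1, Calcoco2 and Nanos2 overlapped with the XX libraries in MEKi-treated XY cells and lay away from the level of untreated XY cells, Nanos2 with a wide error. Nanos2 was counted at 1.85, 1.06, 2.10 and 2.72 CPM in the 4 MEKi libraries, at 0.309, 0, 4.92 and 2.38 CPM in XX + DMSO, and at 11.9, 37.3, 13.7 and 23.9 CPM in XY + DMSO. The MEKi and XX libraries overlapped, and all 8 lay below every untreated XY library. Nanos2 did not pass the test against XX (log2 fold change 1.19, 95% interval -0.37 to 2.75, FDR 0.857), a wide interval that rests on 15 and 17 counts, while against XY + DMSO it was lower (log2 fold change -3.21, FDR 0.00152). Against XX, XY + DMSO was higher for this gene (log2 fold change 4.4). The index partners of the XX libraries held 19.4 CPM of Nanos2, and with the share taken out its XX mean went from 1.90 to 1.10 CPM and the MEKi difference from XX to 2.01 (FDR 0.324).

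Pdk1, a kinase that restrains entry of pyruvate into mitochondrial respiration, lay at the XX level with a narrow error. Its 4 MEKi libraries read 25.9, 31.7, 44.2 and 28.8 CPM, its XX libraries 30.6, 30.5, 28 and 34.5 CPM, and its untreated XY libraries 142, 151, 150 and 143 CPM. The difference from XX was 0.00 on the log2 scale (95% interval -0.42 to 0.42) and that from XY + DMSO -2.20 (FDR 2.069e-09). Samhd1, a nuclease that lowers the cell's supply of dNTPs, gave the same picture at 0.01 (95% interval -0.31 to 0.33) from XX and -1.36 from XY + DMSO. Calcoco2, an autophagy receptor, was low in untreated XY cells and at the XX level with MEKi. It averaged 58.5 CPM in XY + MEKi, 55.7 CPM in XX + DMSO and 11.8 CPM in XY + DMSO, and differed from XX by 0.06 (95% interval -0.30 to 0.42). Spry2, a feedback inhibitor of receptor tyrosine kinase signalling, differed from XX by 0.02 (95% interval -0.73 to 0.76), and its difference of -1.38 from XY + DMSO did not pass the test (FDR 0.82).

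Other genes lowered by MEKi in XY cells lay above the XX level or below it. Pmaip1 (the BH3-only cell death protein NOXA) was measured at 7.85, 8.97, 11.6 and 5.44 CPM with MEKi, between 0.492 and 1.55 CPM in XX, and between 63.4 and 72.9 CPM in XY + DMSO, so its MEKi libraries lay between the other groups without touching either. It was higher than in XX by 2.57 on the log2 scale (FDR 0.00505). Etv1, an ETS transcription factor, and Lrrfip1 were likewise in between, at 2.67 and 1.31 above XX. Etv4, a sister factor of Etv1, was lower than in XX, at 3.70, 1.06, 1.05 and 1.09 CPM with MEKi against 14.2, 14.1, 9.35 and 11.9 CPM in XX (log2 fold change -2.79, FDR 0.0004751) and 17.1 to 32 CPM in XY + DMSO. Ret, the receptor of GDNF, was at 0.924 to 4.21 CPM with MEKi and 3.57 to 7.52 CPM in XX, a difference of -1.35 that did not pass (FDR 0.498). These 5 genes and Pdk1 make up a list of 6 that was picked because both an FGF receptor inhibitor and MEKi lowered them in these same samples, so their fall against XY + DMSO is no independent evidence. Against XX, 3 of the 6 were higher and 1 was lower.

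The list of 15 ERK feedback regulators and targets had 1 gene higher than in XX (Etv1) and 2 lower (Etv4 and Dusp5), with a median log2 fold change of 0.02, against -0.03 over all genes tested. In untreated XY cells, 4 of the 15 were higher and 1 was lower than in XX, with a median of 0.59. Dusp5, an ERK phosphatase of the nucleus, was lower with MEKi at 8.16 to 16.3 CPM against 31 to 57.5 CPM in XX, and was lower in XY + DMSO as well (log2 fold changes -1.88 and -1.23). Dusp6, the cytoplasmic ERK phosphatase, was 7.08 to 20.5 CPM with MEKi and 4.70 to 11.1 CPM in XX, which overlap, and its difference of 0.58 did not pass. Egr1, an immediate early gene, had values of 58.1 to 77.6 CPM with MEKi and 26.6 to 66.9 CPM in XX (log2 fold change 0.97, FDR 0.286).

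Of the 25 genes called between XY + MEKi and XY + DMSO, some were at neither sex's level. Spp1, the secreted protein osteopontin, was measured at 84.5, 71.8, 63.1 and 85.4 CPM with MEKi, while XX + DMSO (12.8 to 17.9 CPM) and XY + DMSO (17.1 to 23.7 CPM) were both low, so that every MEKi library stood above all 8 others. It was higher than in XX by 2.22 on the log2 scale (FDR 3.694e-09). Syne1, which links the nucleus to the cytoskeleton, was in the same position at 114 to 136 CPM against 30 to 65.1 CPM in XX (log2 fold change 1.36). Lgals3, a galectin, was counted at 3.70 to 8.16 CPM with MEKi and at no more than 0.47 CPM in any XX library (log2 fold change 3.81). Nab2, a corepressor of EGR factors, went the other way, at 0.462 to 2.18 CPM against 4.23 to 8.36 CPM in XX, but did not pass the test against XX (log2 fold change -2.05, FDR 0.0913; -1.20 with the shared index taken out). The embryonic globins Hba-x and Hbb-y and the adult globin Hba-a2 were also among the 8 genes higher with MEKi and are described with the blood markers. Tmem130, Nmi and Pde6b were lower than in XY + DMSO and overlapped with XX, whereas Dgka (log2 fold change 1.03 from XX, FDR 0.304) did not overlap and did not pass. Dgka was called higher than in XX with the shared index taken out (log2 fold change 1.49, FDR 0.02634), and the difference of Tmem130 went from 0.87 to 2.38 without passing (FDR 0.142). Tor3a and Fbxo41 were lower than in XY + DMSO and higher than in XX, at 1.63 and 2.40 above it. The partner libraries held 65.1 CPM of Fbxo41, and with their share taken out its XX mean went from 4.13 to 0.813 CPM and its difference to 5.15. Of these calls against XY + DMSO, those of Pde6b, Tor3a, Nmi and Hba-a2 were lost under 13, 12, 10 and 12 of 18 other settings. Those of Hba-x and Hbb-y were lost with no filter on low counts and with DESeq2, Hbb-y also with edgeR's glmTreat, Lgals3 with DESeq2, and Nab2 and Tmem130 with the replicate block. Leaving out MEKi replicate 1 ended those of Fbxo41 (FDR 0.05757) and Nab2 (FDR 0.1747), and leaving out XY + DMSO replicate 4 those of Lgals3 (FDR 0.05863) and Hbb-y (FDR 0.1093), which was also lost without XY + DMSO replicate 5 (FDR 0.08848).

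**Figure D3:**
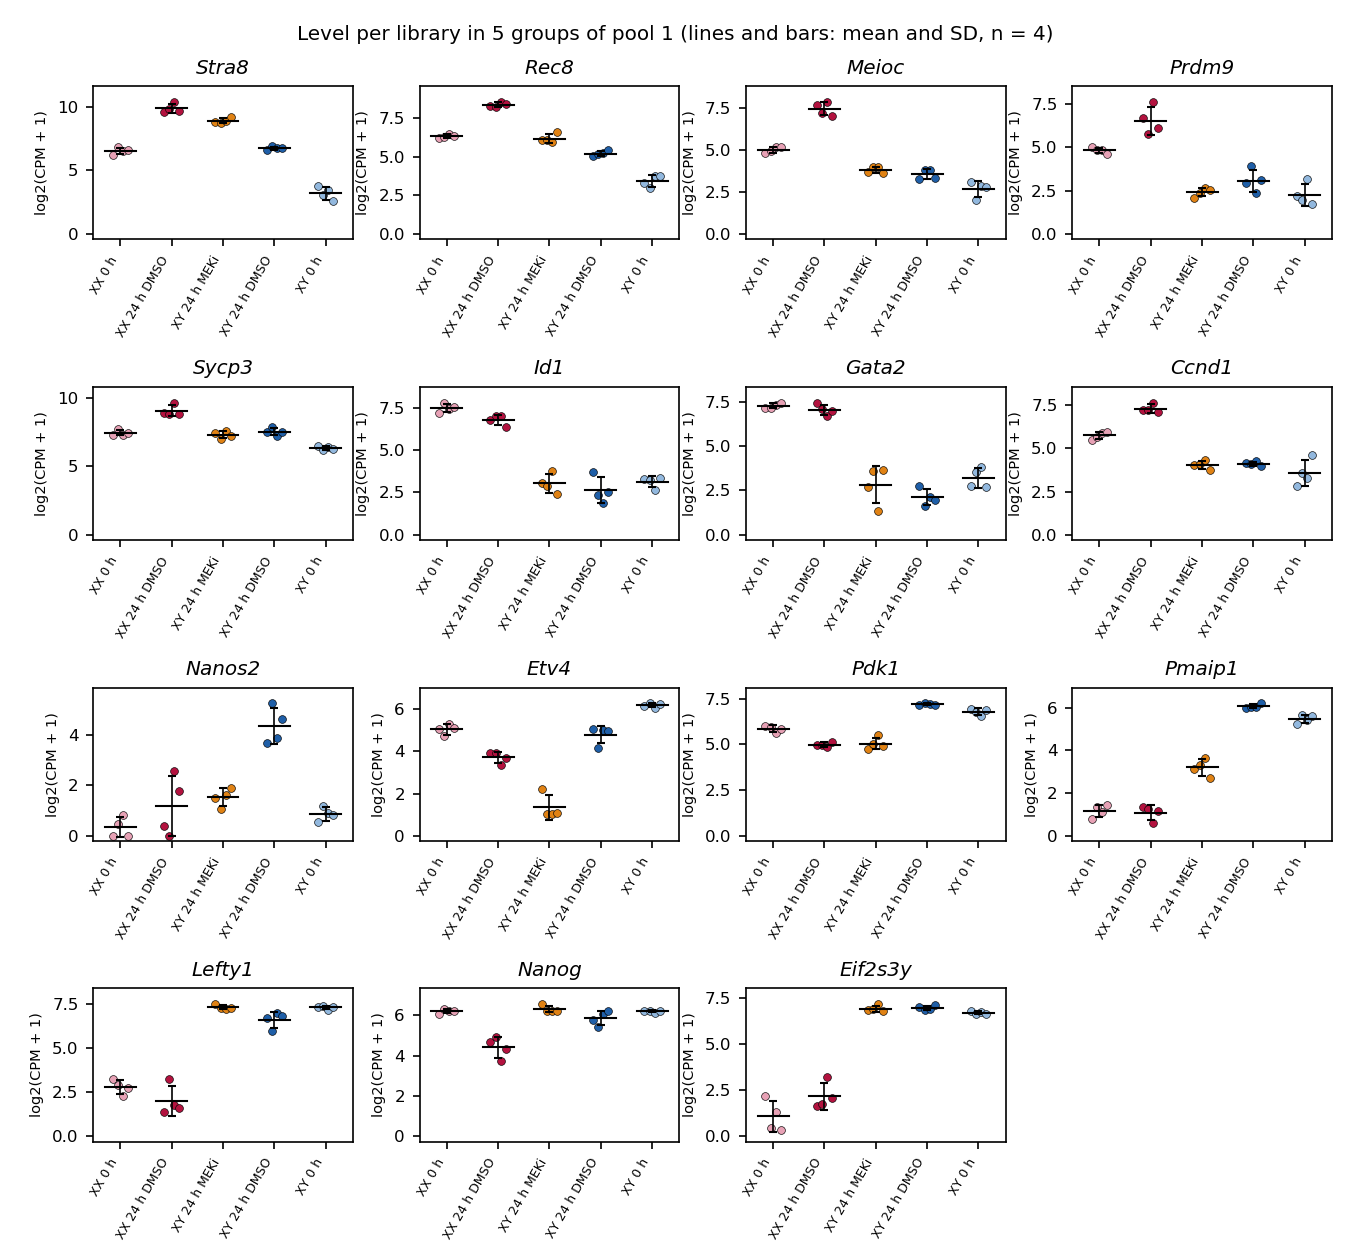
Level of 15 genes in each library, as log2(CPM + 1) on the y axis, for 5 groups of 4 libraries along the x axis; lines and bars give the mean and SD. Orange MEKi points overlap the XX 24 h points for Nanos2 and Pdk1, lie below them for Etv4, between the sexes for Stra8 and Pmaip1, near the untreated XY libraries for Meioc, Prdm9, Id1, Gata2 and Ccnd1, and above both other groups for Lefty1.

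Among genes of meiotic entry, Stra8 and Rec8 lay between the sexes in the MEKi libraries. Stra8 (chromosome 6: 34897098 to 34916279, GRCm39) was counted at 445, 418, 470 and 573 CPM in XY + MEKi, at 770, 932, 1340 and 818 CPM in XX + DMSO, and at 93.8, 119, 105 and 105 CPM in XY + DMSO. The 3 groups did not overlap. Against XX, Stra8 was 1.91-fold lower (log2 fold change -0.93 ± 0.15 SE, 95% interval -1.23 to -0.64), which did not pass the 1.5-fold test (FDR 0.1055), and against XY + DMSO it was higher by 2.19 (FDR 2.069e-09). Without a filter on low counts, the second of these had an FDR of 0.0624, and with the shared index taken out it was 2.84. The difference from XX was called under 5 of 18 other settings, among them edgeR's test against the same fold and the fit without MEKi replicate 6 (FDR 0.04915). At 0 h, before the drug, Stra8 was lower in XY by 3.59, and the change of the sex difference from 0 h to 24 h under MEKi was 2.66 (FDR 0.0009905).

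Rec8, the meiotic kleisin of the cohesin ring and a gene that retinoic acid also induces, read 66.5, 67, 62.6 and 95.2 CPM with MEKi, 313, 298, 376 and 343 CPM in XX and 31.5, 35.2, 36.2 and 41.7 CPM in XY + DMSO. It was lower than in XX by 2.18 (FDR 5.999e-13), and its difference from XY + DMSO of 0.95 did not pass the test, although those libraries did not overlap. Meiosin, the partner of STRA8, was lower than in XX by 3.33 (0 to 2.64 CPM against 8.33 to 22.6 CPM). Meioc, which lets germ cells stay in prophase with the RNA helicase YTHDC2, was lower by 3.64 (11.4 to 14.8 CPM against 130 to 231 CPM), and Zfp541, a zinc finger protein of prophase, by 4.63. Ythdc2 itself was at 14.3 to 21.2 CPM and 29.1 to 42.7 CPM and did not pass (log2 fold change -0.99, FDR 0.207). Of 8 genes on the list 7 were in the table and tested, and 4 of these were lower, with a median of -2.18. In XY + DMSO against XX, 6 of the 7 were lower and the median was -3.12.

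The windows of 250 bases before the starts of the canonical transcripts (GENCODE M39) of Stra8, Meiosin and Prdm9 are shown because these genes stood at different distances from the XX level: Stra8 between the sexes, and Meiosin and Prdm9 (a histone methyltransferase that places recombination sites) near the untreated XY level. They were read 5′ to 3′ on the gene's strand from GRCm39, at chr6:34897600-34897849 (plus strand), chr7:18852294-18852543 (minus) and chr17:15784615-15784864 (minus). The canonical transcript of Stra8 starts inside the annotated gene, whose first base belongs to another transcript, so the bases before the gene itself were not searched. Capitals mark matches, on either strand, to CNCCTCAG, the sequence described for STRA8 and MEIOSIN, or to CCGGAAG, a core recognised by ETS factors.

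Stra8: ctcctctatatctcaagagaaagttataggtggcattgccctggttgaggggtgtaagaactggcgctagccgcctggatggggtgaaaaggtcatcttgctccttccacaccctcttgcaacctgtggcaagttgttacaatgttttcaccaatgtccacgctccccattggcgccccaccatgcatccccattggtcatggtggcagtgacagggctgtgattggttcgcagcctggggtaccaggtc
Meiosin: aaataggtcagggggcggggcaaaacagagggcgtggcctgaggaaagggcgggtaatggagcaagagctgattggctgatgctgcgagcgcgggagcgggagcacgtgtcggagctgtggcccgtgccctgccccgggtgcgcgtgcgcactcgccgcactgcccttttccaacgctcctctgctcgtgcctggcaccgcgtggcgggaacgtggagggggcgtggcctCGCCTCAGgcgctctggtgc
Prdm9: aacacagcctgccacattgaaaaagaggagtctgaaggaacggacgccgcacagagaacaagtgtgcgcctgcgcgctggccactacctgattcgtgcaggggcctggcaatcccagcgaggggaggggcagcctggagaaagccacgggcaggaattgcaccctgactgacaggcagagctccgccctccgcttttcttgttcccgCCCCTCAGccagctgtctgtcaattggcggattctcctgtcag

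CNCCTCAG was found once each in the Meiosin and Prdm9 windows and neither motif in that of Stra8. Among 44 promoters of the meiotic lists, 5 (11.4%) held CNCCTCAG, those of Meiosin, Hormad2, Spo11, Prdm9 and Msh5, against 841 of 12419 (6.77%) over all tested protein-coding genes. Hormad2 and Spo11 did not pass the test against XX, and the other 3 were lower. CCGGAAG was in 1 of the 17 promoters of genes lower with MEKi than with DMSO (5.88%), that of Pde6b, and in 1277 of 12419 (10.3%) overall. The motifs do not overlap each other.

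Genes that respond to BMP were much lower in XY + MEKi than in XX. Of 10 genes tested, 7 were lower in XY + MEKi than in XX and none was higher, with a median log2 fold change of -2.64; in XY + DMSO 7 were lower too, with a median of -3.57. Id1, an inhibitor of basic helix-loop-helix factors and a direct SMAD target, was counted at 7.39, 6.33, 12.6 and 4.35 CPM with MEKi and at 109, 128, 127 and 80.5 CPM in XX (log2 fold change -3.85, FDR 2.31e-12). XY + DMSO libraries were at 2.73 to 11.9 CPM, overlapping the MEKi libraries. Gata2, a transcription factor of early XX germ cells, was at 5.54, 11.1, 1.58 and 11.4 CPM against 170, 133, 103 and 123 CPM in XX, lower by 4.45. The homeobox genes Msx1 and Msx2 were lower by 4.68 and 4.49, Id2 and Id3 by 2.46 and 2.38, and Smad9 by 2.82. Smad6, Smad7 and Bambi, which dampen the pathway, gave -0.81, -0.37 and 0.05 and did not pass. With the shared index taken out, 6 of 9 genes tested were lower.

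The retinoic acid list was mostly uncalled. Of 10 genes, 7 passed the filter on low counts and 1 was lower, Crabp1, a cytoplasmic carrier of retinoic acid, at 10.6 to 20.5 CPM against 47 to 64.7 CPM in XX (log2 fold change -2.01). The degrading enzymes Cyp26a1 and Cyp26b1 and the receptor Rarb were below the filter. The list's median was -0.72, and -0.98 for XY + DMSO.

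Structural genes of meiotic chromosomes were lower than in XX almost throughout. Of 13 genes of the chromosome axis and synapsis, 11 were lower and none was higher (median -1.32; -1.48 for XY + DMSO, where 10 were lower). Sycp3, a core protein of the lateral element, was counted at 174, 126, 194 and 150 CPM with MEKi, 469, 460, 803 and 450 CPM in XX and 150 to 232 CPM in XY + DMSO, so that 1 MEKi library lay below the untreated XY range, the other 3 lay within it, and all 4 were under the XX range. It was lower than in XX by 1.64 (FDR 2.05e-07). Sycp1, the transverse filament protein, and the meiotic cohesins Stag3 and Smc1b were lower by 1.34, 1.26 and 1.04. Rad21l, another meiotic kleisin, had counts in only 1 MEKi library and was lower by 4.32, and Tex12, a part of the central element, by 2.19. Syce2 and Hormad2 gave -0.66 and -0.58 and did not pass. With no filter on low counts, Smc1b had an FDR of 0.05507.

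Of 20 recombination genes, 19 were tested, 11 were lower and none was higher (median -1.85; -1.60 for XY + DMSO). Prdm9 was at 3.23, 4.22, 5.26 and 4.90 CPM with MEKi and at 101, 53.5, 196 and 68.2 CPM in XX, lower by 4.20 (FDR 4.01e-08). Its highest XX value was that of replicate 6. Mei1, needed for double-strand breaks, was lower by 4.60. The recombinase Dmc1 and its partner gene Meiob, which binds single-stranded DNA, were lower by 1.85 and 2.45. Tex15 was lower by 2.25, and its sex difference had been -0.33 at 0 h, a change of -1.91 (FDR 0.0001945). Spo11, the nuclease that makes the breaks, gave -0.47 and did not pass. Mnd1, a cofactor of strand invasion, pointed the other way at 94 to 167 CPM against 61.5 to 83.3 CPM in XX (log2 fold change 0.95, FDR 0.0522). It passed without XX replicate 9 (FDR 0.0314) or MEKi replicate 2 (FDR 0.002892), and with the shared index taken out the list held 1 gene called higher and 11 called lower.

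Of 5 telomere attachment genes of meiosis, 3 were lower in XY + MEKi than in XX. Terb1, which joins telomeres to the nuclear envelope complex, was counted at 0.462, 4.75, 1.05 and 1.09 CPM against 35.2, 21.6, 62.5 and 23 CPM in XX (log2 fold change -4.36, FDR 7.78e-07). Majin, its membrane anchor, had counts in 1 MEKi library and was lower by 4.65, and Kash5 was lower as well. Terb2 did not pass at -1.17 (FDR 0.115; 0.01791 without XX replicate 9), nor did Sun1 at 0.05. The median was -2.22, and -2.90 for XY + DMSO, where 4 were lower. In bulk libraries such as these, fewer cells that express a gene and less RNA per cell cannot be told apart, and this holds for every level given here.

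Oocyte transcription factors had 2 of 6 genes lower, Figla (1.58 to 5.79 CPM against 24.9 to 71.8 CPM; log2 fold change -3.12) and Sohlh1, which is described with the shared index below. Nobox, Lhx8, Sohlh2 and Taf4b did not pass. Of 7 genes named in the study for XX germ cells and held in no other list here, 3 were lower: the homeobox gene Irx3 by 2.54, the cyclin Ccnb3 by 1.90 and the checkpoint kinase Atr by 0.94. Atr was not called without MEKi replicate 6 (FDR 0.09538), nor Ccnb3 with no filter on low counts (FDR 0.05734).

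Of 11 genes of NODAL signalling, 5 were higher than in XX with MEKi and none was lower, against 6 in XY + DMSO and 6 at 0 h. The gene called in the last 2 comparisons and not with MEKi was Cripto (Tdgf1), the co-receptor of NODAL. It was counted at 1.39, 1.58, 5.26 and 0 CPM with MEKi, 0.309, 0.939, 0.492 and 1.98 CPM in XX and 9.28, 5.18, 14.7 and 7.53 CPM in XY + DMSO. Its MEKi and XX libraries overlapped (log2 fold change 0.42, 95% interval -1.06 to 1.90, FDR 1), while XY + DMSO was higher than XX by 3.06 (FDR 0.001299). The difference of -2.65 from XY + DMSO did not pass (FDR 0.0953), nor did the change of -3.34 in its sex difference since 0 h (FDR 0.0596). With MEKi the list's median is the value of this gene, 0.42, against 3.06 in XY + DMSO and 3.03 at 0 h. Lefty1 (chromosome 1: 180762587 to 180765971), a secreted antagonist and direct target of NODAL, was counted at 176, 153, 147 and 151 CPM with MEKi, at 1.55, 8.45, 2.46 and 1.98 CPM in XX and at 100, 60.6, 125 and 109 CPM in XY + DMSO. The MEKi libraries were the highest of the 3 groups, 51.6-fold over XX (log2 fold change 5.69 ± 0.45 SE, FDR 3.744e-13), and the difference from XY + DMSO of 0.64 did not pass. Its neighbour Lefty2, a close paralog that could share reads with it, was higher by 5.49. Nodal itself was at 7.37 to 13.1 CPM against 0 to 2.35 CPM (log2 fold change 3.67), and Otx2 at 24.5 to 35.8 CPM against 0.939 to 1.59 CPM (4.17). The receptors Acvr1b, Acvr2a and Acvr2b and the transducers Smad2 and Smad3 lay between -0.25 and 0.40 and did not pass.

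Pluripotency genes were higher in XY + MEKi for 4 of the 11 tested and lower for none, with a median of 0.79; XY + DMSO had 3 and a median of 0.66, and at 0 h none passed and the median was -0.08. Nanog, a core factor of pluripotency, was counted at 93.3, 73.9, 74.2 and 74 CPM with MEKi, 24.7, 29.6, 12.3 and 19.4 CPM in XX and 41.9 to 72.9 CPM in XY + DMSO. All 4 MEKi libraries exceeded every library of both other groups, the difference from XX was 1.85 (FDR 2.899e-06), and that from XY + DMSO was 0.36 and did not pass. The sex difference in Nanog was -0.01 at 0 h and had changed by 1.86 (FDR 0.0008551). Zfp42, Dppa5a and Pou5f1 (OCT4) were higher by 1.42, 1.27 and 1.08. Sox2, Klf4 and Esrrb gave -0.37, 0.05 and 0.25.

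Among 11 germ cell identity genes 3 were higher, Pou5f1, Dppa3 and Nanos3, and none was lower (median 0.18). Dppa3, a maternal-effect protein that protects DNA methylation, was at 1910 to 2250 CPM with MEKi against 594 to 922 CPM in XX (log2 fold change 1.54, FDR 7.225e-06). Nanos3, which keeps early germ cells alive, was at 34.8 to 59.5 CPM against 7.73 to 17.5 CPM (2.05). Ddx4 and Dazl, the best known germ cell markers, gave -0.83 and 0.18 and did not pass.

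None of the 7 genes on the list of male fate and RNA-binding regulators was called against XX, with a median of 0.69, while 3 (Nanos2, Tdrd5 and Dppa4) were higher in XY + DMSO, with a median of 0.73. Tdrd5, a Tudor protein of germ granules, was at 85.9, 100, 102 and 70.2 CPM with MEKi, 46.7, 40.4, 53.6 and 46.8 CPM in XX and 125 to 174 CPM in XY + DMSO, so it lay between the sexes with no overlap (log2 fold change from XX 0.93, 95% interval 0.65 to 1.22, FDR 0.0879). Dppa4, a chromatin protein of pluripotent cells, was 1.72-fold higher than in XX (FDR 0.309). With the shared index taken out, both passed (log2 fold changes 1.18 and 0.97), and Tdrd5 also passed without MEKi replicate 6 (FDR 0.02238).

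**Figure D4:**
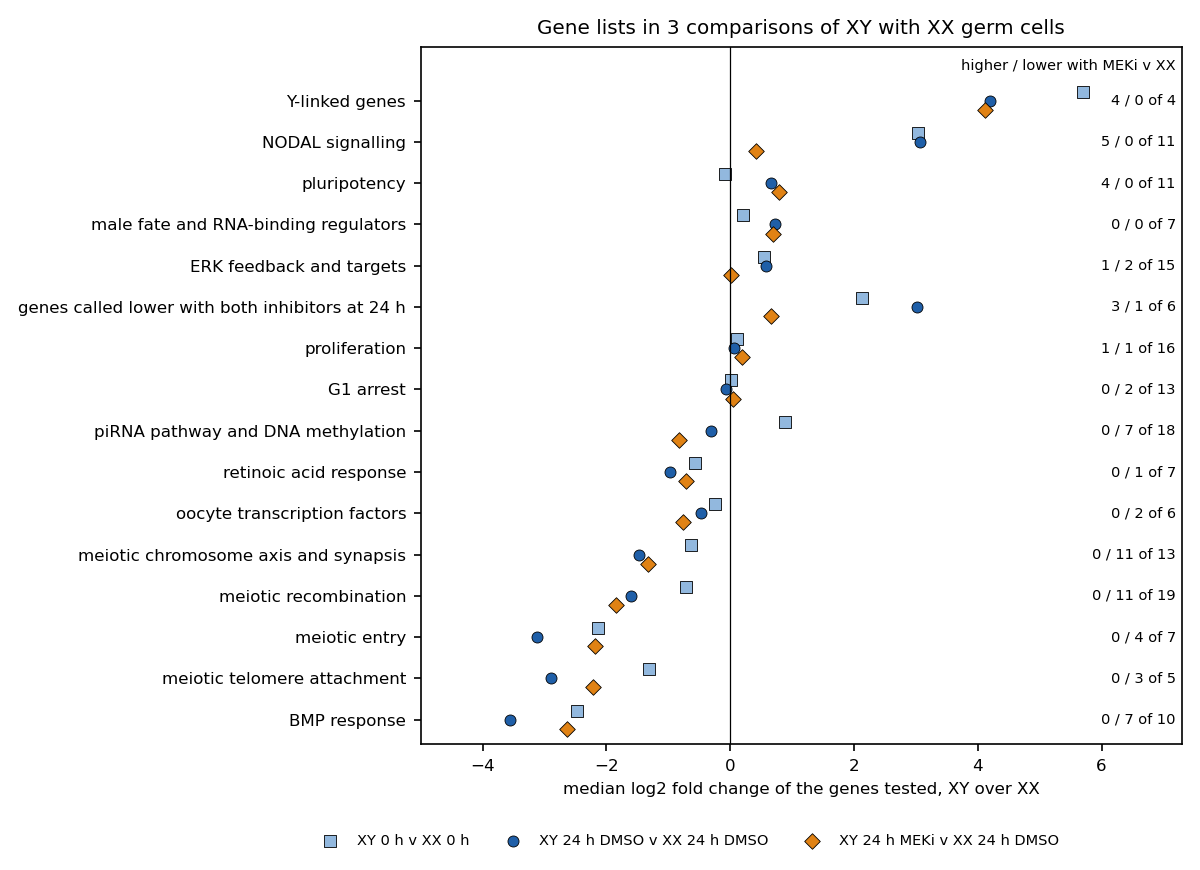
Median log2 fold change of XY over XX for 16 gene lists, on the x axis, in 3 comparisons: at 0 h (light blue squares), in DMSO at 24 h (blue circles) and with MEKi at 24 h (orange diamonds). The numbers at the right count genes higher and lower in XY + MEKi than in XX. BMP and meiotic lists have medians below 0 in all 3 comparisons (-2.64 for BMP with MEKi), the NODAL median is 3.06 in DMSO and 0.42 with MEKi, where 5 of 11 genes were still higher, and the list of genes called lower with both inhibitors, which was chosen on these samples, moves from 3.01 to 0.65.

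Results for the piRNA pathway and de novo DNA methylation depended on the shared index. As counted, 7 of 18 genes were lower in XY + MEKi than in XX and none was higher (median -0.83). Spocd1, which directs methylation to young transposons, had no counts in any MEKi library and 5.26, 6.58, 14.3 and 7.54 CPM in the XX libraries, at least 21.9-fold lower against a floor of 3 counts over the 4 MEKi libraries. The partner libraries of the other pool held 168 CPM of it on average. With their share taken out, the XX mean was 0.224 CPM, under that floor, and the gene was not called (FDR 1). Dnmt3l, the cofactor of the de novo methyltransferases, went from 9.35 to 1.83 CPM in XX and from a log2 fold change of -4.29 to -1.35. Piwil4 (MIWI2) went from -2.42 to -1.01, and Tdrd9 from -3.39 to -2.21 (FDR 0.1218). These 4 and Mov10l1 lost their call, leaving 2 genes lower: Tdrd1, a Tudor protein of the same granules (log2 fold change -1.54, FDR 0.009607), and Mael (-1.09, FDR 0.01247). Mov10l1 changed little: it was at -0.89 with the share taken out (FDR 0.06723) and between -1.06 and -0.89 over all 18 other settings. Tdrd5 was then the 1 gene of the list called higher.

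Sohlh1, a transcription factor of both spermatogonia and primordial follicles, and Nxf2, an X-linked mRNA export factor, were abundant in the same partner libraries, at 251 and 730 CPM on average, and were still called against XX with the share taken out. Sohlh1 was counted at 0.924, 0, 1.58 and 0 CPM with MEKi and at 11.7, 15.5, 31 and 16.3 CPM in XX. Its XX mean fell from 18.6 to 5.92 CPM when the share was taken out, and the log2 fold change went from -4.63 to -3.08 (FDR 0.01713). Nxf2 went from -4.26 to -3.39 (FDR 0.0006027). Both were also called lower than in XY + DMSO, where the libraries share their index with XY cells treated for 72 h with MEKi, and neither of those 2 calls remained with the share taken out (FDR for Nxf2 0.797). Sohlh1 also lost that call without MEKi replicate 6 (FDR 0.07323), and Nxf2 without any 1 of the 4 MEKi libraries (8 of 18 settings in all).

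Female germ cells reactivate their silent X chromosome around this stage, and genes of both sex chromosomes separated the MEKi libraries from XX libraries. All 4 Y-linked genes on the list were higher than in XX. Eif2s3y, a translation initiation factor gene, was at 116, 117, 143 and 110 CPM against 2.16, 2.35, 8.36 and 3.17 CPM in XX, and its log2 fold change went from 5.22 to 8.15 when the shared index was taken out. The carried share was set from the XX counts of these 4 genes, so that rise follows from how the share was set. X-linked genes took 2.98, 2.95, 3.09 and 2.98% of the counts in the MEKi libraries, 3.71, 3.77, 3.84 and 3.82% in XX and 2.88 to 3.06% in XY + DMSO. MEKi libraries lay wholly below XX libraries (difference of -0.786 percentage points, exact permutation p = 0.02857, which is the smallest p that 4 against 4 allows, and 0.04762 adjusted over 10 tests of shares). Against XY + DMSO the difference was 0.0387 points (exact permutation p = 0.5143). Of 635 X-linked genes tested, 87 were lower and 10 higher than in XX, with a median of -0.36. On the autosomes 738 of 14335 were lower and 446 higher, with a median of -0.02.

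The largest differences outside the lists joined genes of several kinds. Among the 15 genes called higher with the largest fold and no overlap, Lefty1 and Lefty2 belong to the NODAL list, Eif2s3y, Uba1y and Zfy1 are Y-linked and Hba-x and Hbb-y are globins. Ddr2 (chromosome 1: 169799876 to 169938331), a collagen receptor tyrosine kinase, was counted at 13.4, 11.1, 8.42 and 13.1 CPM with MEKi and had no count in any XX library. It was at least 38-fold higher against a floor of 3 counts over the 4 XX libraries, and XY + DMSO libraries had 3.77 to 8.25 CPM. At 0 h its difference was -1.15 and did not pass. Klk1, a kallikrein protease, was at 13.2 to 21 CPM against at most 0.492 CPM in XX. Spic, an ETS factor known from macrophages, was at 13.1 to 28.4 CPM against at most 0.618 CPM, and the protease gene Prss29 at 11.6 to 21.2 CPM against at most 0.984 CPM. Khdc3, a part of the maternal complex of the egg cortex, was higher by 4.64, and Ambp and Elobl by 5.32 and 5.42. None of these 7 passed the test of MEKi against DMSO in XY cells.

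The 15 genes called lower with the largest fold included Msx1, Majin, Zfp541, Spocd1 and Sohlh1 from the lists. Sct, which encodes the hormone secretin, was at 0.924, 1.58, 0 and 1.63 CPM with MEKi and at 34.3, 55, 35.9 and 44.4 CPM in XX (log2 fold change -5.38). Phlda2, an imprinted gene expressed from the maternal allele, was at 0.462 to 4.35 CPM against 42.8 to 94 CPM (-5.17). Dmrtc2, a DM-domain protein of meiosis, was at 1.58 to 4.21 CPM against 70.2 to 154 CPM (-5.0). Lypd4, which lies beside Dmrtc2 on the other strand and overlaps it at one end, was lower by 5.46. Pparg, a nuclear receptor of lipid metabolism, had no count in any MEKi or XY + DMSO library and 6.35 to 20.7 CPM in XX, at least 26.9-fold lower. H2-Ab1, an MHC class II chain, and Tsbp1, near it on chromosome 17, were lower by 5.08 and 4.95. The remaining genes of the 15, Gm45441, 6430548M08Rik and ENSMUSG00000106972, have no described role here.

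Cell cycle genes were mostly uncalled. Of 16 proliferation genes, 1 was higher (Aurkb, a mitotic kinase, by 1.43) and 1 lower (Ccne2, a cyclin of S phase entry, by 1.13), with a median of 0.19. The call of Ccne2 was lost without XX replicate 4 or 6 (FDR 0.05105 and 0.1408) and without MEKi replicate 4 or 6 (FDR 0.08054 and 0.08299). Of 13 genes on the list of G1 arrest, 2 were lower. Ccnd1, the cyclin D1 that drives cells out of G1, was at 15.7, 15.8, 18.9 and 12.5 CPM with MEKi, 150, 150, 199 and 134 CPM in XX and 14.5 to 18.1 CPM in XY + DMSO. It was 9.61-fold lower than in XX (FDR 1.9e-14) and did not differ detectably from XY + DMSO (log2 fold change -0.01, FDR 1). Cdkn2d, an inhibitor of CDK4 and CDK6, was lower by 1.05, a call lost without XX replicate 6 (FDR 0.06075) or MEKi replicate 6 (FDR 0.1163). Cdkn1a (p21) was at 64.4 to 80.8 CPM against 23.6 to 40.5 CPM in XX (log2 fold change 1.04, FDR 0.0883), and its sex difference had changed from -0.80 at 0 h by 1.84 (FDR 0.001797).

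Markers of other cells were more abundant in the MEKi libraries than in XX libraries, at low levels. The marker genes of gonadal somatic cells, endothelium and blood took 0.0336, 0.0373, 0.0286 and 0.0582% of counts with MEKi, 0.0104, 0.00697, 0.0111 and 0.00814% in XX and 0.012 to 0.0302% in XY + DMSO, so MEKi and XX libraries did not overlap (exact permutation p = 0.02857, adjusted 0.04762). Blood and endothelial genes made up most of this. Of 15 such genes 7 passed the filter on low counts and 5 were higher than in XX, all of them globins; Hba-a1 was at 82.2, 75.5, 56.3 and 179 CPM against 9.39 to 15.5 CPM (log2 fold change 2.82). Hbb-y and Hba-x, globins of embryonic red cells, were higher by 4.89 and 4.76. The adult globins come in near-identical pairs between which reads may be split, and Hbb-bs was not called under 5 of 18 other settings (FDR up to 0.281): edgeR's glmTreat, DESeq2, the replicate block, and the fits without XX replicate 4 (FDR 0.07758) or MEKi replicate 6 (FDR 0.05653). Cdh5, of endothelium, gave -0.74 and did not pass, and Hbb-bh1 and C1qa had none in XX. Blood and endothelial counts were also higher than in XY + DMSO (0.0283 ± 0.013% against 0.00881 ± 0.0043%, SD, n = 4; exact permutation p = 0.02857, adjusted 0.04762).

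Of 21 gonadal somatic genes 17 passed the filter and 2, both of Sertoli cells, were higher than in XX. Sox9, a transcription factor that acts downstream of SRY in Sertoli cells, was at 14.8, 20.6, 14.2 and 16.3 CPM against 1.59 to 3.44 CPM, and 7.52 to 59.8 CPM in XY + DMSO, and Ptgds was higher by 2.98. Sox9 was not called with the replicate block or without XX replicate 9 (FDR 0.06046). Amh and Insl3 had no count in any MEKi library. Somatic genes took 0.0111 ± 0.0019% of counts with MEKi, 0.00531 ± 0.00091% in XX and 0.0111 ± 0.0049% in XY + DMSO (SD, n = 4). Mitochondrial transcripts took 1.74 ± 0.091% with MEKi and 1.42 ± 0.041% in XX. The part that these markers have in the other differences was not tested.

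Genes that separated the sexes at 0 h were used as lists drawn from other libraries. Of the 205 genes higher in XY at 0 h, 84 (41%) were higher in XY + MEKi than in XX at 24 h and 7 were lower, with a median log2 fold change of 1.22 against 1.93 at 0 h. For XY + DMSO the counts were 119 and 2 and the median 1.66. Of the 252 genes higher in XX at 0 h, 147 (58.3%) were lower in XY + MEKi and none was higher, with a median of -1.74 against -1.87 at 0 h; for XY + DMSO it was 175, with a median of -1.95. The share called over all genes was 3.10% higher and 5.52% lower, as above. The genes were selected on their 0 h differences, which makes the 0 h medians larger in size. A smaller median at 24 h therefore cannot be read by itself as a loss of the sex difference. In XY + MEKi against XY + DMSO, the median was -0.37 for the genes higher in XY at 0 h and 0.26 for those higher in XX. The 7 that turned round were Sohlh1, Nxf2, Spocd1, Dnmt3l, Gm3858, Etv4 and Rrad, a small GTPase that was chosen for naming after its values were seen (log2 fold change 3.23 at 0 h and -2.16 with MEKi). With the shared index taken out, 96 were higher and 3 lower (Nxf2, Etv4 and Sohlh1), so that Rrad, too, was no longer called. The excess in XY at 0 h was then itself no longer called for Spocd1 (log2 fold change 1.95, FDR 0.922), Dnmt3l (0.85, FDR 1), Sohlh1 (1.22, FDR 1) and Gm3858 (2.30, FDR 0.41), and was still called for Nxf2 (3.99) and Etv4 (1.15).

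**Figure D5:**
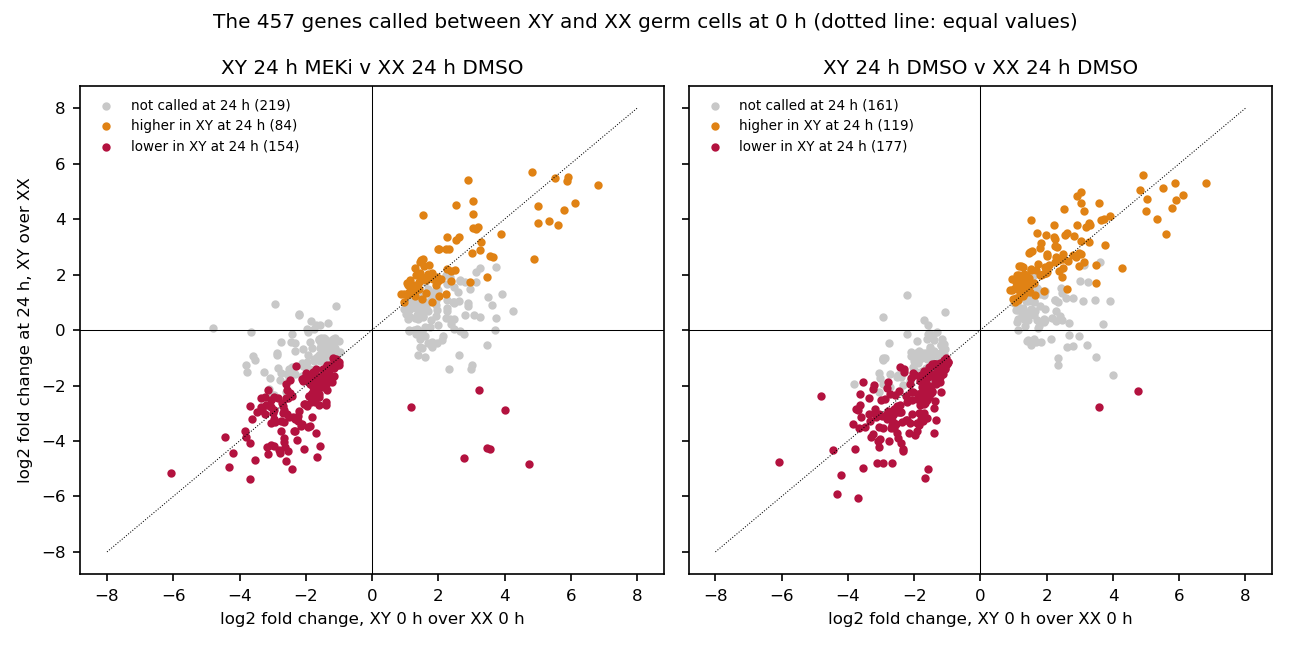
Each point is 1 of the 457 genes called between XY and XX germ cells at 0 h, with its log2 fold change at 0 h on the x axis and at 24 h on the y axis, against XX 24 h DMSO in both panels: XY with MEKi at the left, XY in DMSO at the right. Orange and red points were called higher and lower in XY at 24 h; 219 points are grey (not called) with MEKi and 161 in DMSO, and the few red points at the lower right are the genes that turned round.

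Genes that separate XY + DMSO from XX + DMSO at 72 h, in libraries of the other pool, held a smaller share of genes called at 24 h with MEKi. Of 2768 genes higher in XX at 72 h, 377 (13.6%) were lower in XY + MEKi than in XX at 24 h and 7 were higher, with a median of -0.40. Of 3482 genes higher in XY at 72 h, 228 (6.55%) were higher and 106 (3.04%) lower, with a median of 0.13. Over all genes tested, 3.10% were called higher and 5.52% lower. Among those also called at 0 h in the same direction, 71 of 92 XX genes were lower (77.2%) and 46 of 112 XY genes higher (41.1%). With the shared index taken out, the 72 h counts were 366 lower of 2759 and 311 higher with 63 lower of 3450. The index partners of the XX libraries were XY libraries of 72 h in that pool.

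Whether the sex difference itself had changed since 0 h was tested as an interaction. Toward XY here means a higher XY less XX value, and toward XX a lower one, whichever sex was higher at 0 h. Under MEKi the difference had moved toward XY for 69 genes (0.452%) and toward XX for 117 (0.767%). In DMSO the counts were 36 (0.236%) and 33 (0.216%), and 75 and 51 with the shared index taken out. The larger changes toward XY with MEKi were those of Ddr2 (7.0), Lgals3 (6.58), Ambp (5.51), Mobp (4.95) and Septin12 (4.91), and Calcoco2 went from -4.80 at 0 h to 0.06, a change of 4.86 (FDR 6.632e-09). The largest toward XX were those of Spocd1, Dnmt3l, Nxf2, Sohlh1 and Gm3858, all of them genes abundant in the index partners. With the share taken out, only Nxf2 of these 5 was still called (-7.37), against 85 genes toward XY and 82 toward XX in all. Etv4 kept its change (-3.96 as counted, -4.00 after). Without MEKi replicate 1 the counts were 55 and 50, and without XY 0 h replicate 3 they were 47 and 74.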

How the data were processed

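Germ cells were sorted from cultured foetal mouse gonads and the 3' ends of their poly(A) RNA were sequenced as 40 libraries in 2 pools. The authors deposited a table of counts per gene, in which reads with the same molecular identifier had been collapsed with scPipe after alignment to GRCm39 with Rsubread, per the study's methods. The deposited counts were used without rounding or rescaling. Columns were matched to groups by the library names in the labels.

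Counts were filtered with edgeR's filterByExpr (minimum count 10, minimum total 15), which kept 15252 of 42422 genes and 99.22% of the counts, and scaled by TMM. Limma 3.58.1 (edgeR 4.0.16, R 4.3.3) was fitted with voomWithQualityWeights over all 40 libraries with 1 mean per group, and treat tested each contrast against a 1.5-fold change, with Benjamini-Hochberg adjustment over all genes tested and an FDR threshold of 0.05. This is the design in the study's methods. Adjusted p-values in the text are from this fit unless another is named, log2 fold changes are fitted values, and CPM (counts per 1e+06) are computed on TMM-scaled library sizes. SD and SE are given over n = 4 libraries. Shares of counts were compared with a two-sided exact permutation test over the 70 regroupings of 4 against 4 libraries. The floor for a group without counts was 3 counts over its 4 libraries and, like the counts, covers counting error only.

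The carried share of an index partner was set from Y-linked counts in XX libraries and subtracted from every library with a partner. Genes were matched to GENCODE M39, which lists Tdgf1 as Cripto and Six6os1 as 4930447C04Rik, for 40391 of 42422 IDs (the rest held 1.053% of counts), and promoter windows were read from the GRCm39 sequence. Reads were assigned to exons with strand taken into account, per the study's code. Pairs of libraries of a group differed by 2.2 to 6.89 times the sampling noise (chi-square per degree of freedom), so none was a repeat of another. Replicate numbers 4 and 6 are shared by the 2 groups. Deviations from the group means correlated at -0.0484 and 0.0149, which gave no sign of pairing by number, though 2 such values cannot exclude a shared origin. The scripts were tested on simulated data.

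Genes named are all those of the lists, the 15 higher and 15 lower called genes with the largest fold and no overlap, all genes called between XY + MEKi and XY + DMSO, and the 5 genes with the largest change since 0 h in each direction; of these, those that carry a result are described. The members, lists and rules were chosen with earlier results of these data known. Alternatives were median-of-ratios size factors, no filter on low counts, edgeR's glmTreat, DESeq2 1.42.0, limma's eBayes with an observed fold over 1.5, no quality weights, pool 1 only, only the groups compared, a replicate block, the shared index taken out, and each library left out in turn. A few genes and sequences are not reported here.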

Additional observations from a re-analysis of the deposited data

Results flagged for a closer look

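Of 250 sets of 4 libraries examined for genes named and shares of counts, 34 held 1 library far from the other 3 (its gap to the nearest, over the group's range, above Dixon's critical value), and chance gives about 1 in 20. XX + DMSO replicate 6 was that library for Eif2s3y (8.36 CPM), Sycp3 (803), Tex12 (175), Meiob (118), Dnmt3l (19.2), Mael (237), Mov10l1 (330), Figla (71.8), Ambp (0.492), Lypd4 (86.1), Dmrtc2 (154), Pparg (20.7), Ccne2 (253), Cdkn2d (82.6), Gm3858 (23.6), ENSMUSG00000106972 (39.4) and Ccnb3 (51.2 CPM), in each case as the highest of its group. XX + DMSO replicate 5 stood apart for Lefty1 (8.45 CPM) and Otx2 (0.939), and replicate 9 for Lrrfip1 (30.1) and Elobl (0.793 CPM).

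Among MEKi libraries, replicate 1 stood apart for Ddx3y (28.2 CPM), Etv4 (3.70), Samhd1 (28.6), Nanog (93.3) and H2-Ab1 (0.462), replicate 2 for Kdm5d (34.8), Terb1 (4.75) and Majin (1.58), replicate 4 for Tmem130 (6.84), Rad21l (1.05), Dnmt3l (1.05) and Tsbp1 (3.68), and replicate 6 for Rec8 (95.2 CPM). For Rad21l, Majin, Dnmt3l and H2-Ab1 it was the 1 MEKi library with a count.

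For 25 of the named genes the XY less XX difference at 24 h with MEKi differed from that at 0 h by the interaction test (limma, FDR between 6.632e-09 and 0.04789). It had moved toward XY (a higher value) on the log2 scale for Calcoco2 (4.86), Spp1 (3.14), Syne1 (1.46), Stra8 (2.66), Nanog (1.86), Ddr2 (7.0), Ambp (5.51), Spic (4.46), Lgals3 (6.58), Mobp (4.95), Septin12 (4.91) and Cdkn1a (1.84). For Calcoco2 (from -4.80 at 0 h to 0.06) and Stra8 (from -3.59 to -0.93) this was a shrinking difference between the sexes. The XY less XX difference had moved toward XX (a lower value) for Etv4 (-3.96), Ret (-3.39), Tex15 (-1.91), Spocd1 (-9.59), Dnmt3l (-7.85), Piwil4 (-4.02), Tdrd1 (-3.14), Tdrd9 (-5.44), Sohlh1 (-7.42), Dmrtc2 (-2.60), Gm3858 (-6.89), ENSMUSG00000106972 (-4.05) and Nxf2 (-7.73). When the shared index was taken out, the first set was still called but for Septin12, which was not tested, and of the second set Etv4, Tex15, ENSMUSG00000106972 and Nxf2 were. Among those that lost the call, sizes changed unequally. Ret was then at -3.08 (FDR 0.1073) and Tdrd1 at -2.05 (FDR 0.06358), whereas Spocd1 was at -2.60, Dnmt3l at -2.20, Piwil4 at -0.92 and Tdrd9 at -3.28.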

How the results depend on the processing

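In XY + MEKi against XX + DMSO, where 1315 genes were called, none of these was called in the other direction under any alternative run. The count was 2135 with edgeR's glmTreat and 4210 with eBayes and an observed fold over 1.5, 1015 (without MEKi replicate 1) to 1270 with a library left out, and within 1.5 times the main count otherwise. For XY + DMSO against XX + DMSO the same tests gave 2358 and 4299, for XY + MEKi against XY + DMSO eBayes gave 556, and at 0 h eBayes gave 2249. Change since 0 h was called under MEKi for 396 genes with edgeR and 1819 with eBayes, and in DMSO for 189 and 1297, and for 126 in DMSO with the shared index taken out. Leaving out a library gave 298 to 433 calls at 0 h, 105 to 179 for the change under MEKi and 44 to 77 for that in DMSO. The lowest counts came without XY 0 h replicate 3 (298; also 121 for the change under MEKi), without MEKi replicate 1 (105) and without XX 0 h replicate 5 (44). Septin12 fell below the filter once the shared index was taken out. With the replicate number as a block, which the labels do not tie to a common origin, the counts were 1046 for MEKi against XX and 18 for MEKi against DMSO. Of 2141 values recomputed for 120 named genes against XX, 2071 kept their side of the threshold with no called value changing sign, 22 lost the call, 47 gained it and 1 changed sign: Gm3858, from -2.88 to 0.03 (FDR 1) with the shared index taken out. Among the 2071, 21 values of 6 genes not called in either fit had the other sign, as did values of Pdk1 around its 0.00. Depth limits the genes near 1 CPM, which rest on about 2 to 3 counts in a library.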
